A study of Schizosaccharomyces pombe with 2 samples.

Results

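The tandem transporter genes SPBPB10D8.04c, SPBPB10D8.05c, SPBPB10D8.06c and SPBPB10D8.07c lie next to each other near the left end of chromosome II of the fission yeast Schizosaccharomyces pombe. They were followed here through the tiles of a whole-genome array that cover 10200 bp of this stretch, leaving out control spots, together with the tiles of the 10 kb on either side. The stretch corresponds to about chrII:91800-101999 of the reference ASM294v3. It took in 27 of the 41240 chromosome tiles used, and the flanks held 33 tiles on the left and 32 on the right. The tiles were chosen by their input signal, which differed between the arrays, so the input, BrdU and ratio values below are a description and carry no test.

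BrdU incorporation had been profiled on 2 Agilent two-colour arrays, 1 for a wild-type strain and 1 for a sap1-1 strain. Both strains were of 972h background and carried the temperature-sensitive cell-cycle allele cdc10-v50, the thymidine kinase module Pnmt1-TK and the nucleoside transport module Padh1-hENT, named for the nmt1 and adh1 promoters that drive them, so that the wild-type strain is wild-type only for sap1. Both cultures were arrested at 35 °C for 4 h, then let go at 26 °C in medium with 10 mM hydroxyurea and 200 µM BrdU, and fixed with 0.1% sodium azide. On each array Cy5 carried the DNA immunoprecipitated with an anti-BrdU antibody and Cy3 carried whole-cell extract DNA, called input below. With 1 array per strain no value has a replicate, strain cannot be told apart from culture and array, and every SD describes tiles within an array and not samples.

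Sap1 is an essential protein of fission yeast that binds DNA at the mating-type locus, in the ribosomal DNA and at the long terminal repeats (LTRs) of retrotransposons, where it can stop replication forks. Hydroxyurea depletes deoxynucleotides, so BrdU taken up in its presence marks DNA made close to origins that have fired, while the input reports how much of a sequence the DNA sample held. Hybridisation cannot tell identical copies of a sequence apart, so a tile in a repeat reads the sum of all copies in the strain.

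In the reference assembly ASM294v3 the 4 genes form a cluster of 4 head-to-tail units of 2759 bp that are 100% identical to each other and span chrII:91637-102672, 11.036 kb in all. Each unit holds a 1140-bp coding sequence on the minus strand, at bases 88 to 1227 of the unit, and a 344-bp LTR, at bases 1881 to 2224. The annotated genes are SPBPB10D8.04c (chrII:91376-92863), SPBPB10D8.05c (chrII:94483-95622), SPBPB10D8.06c (chrII:97242-98381) and SPBPB10D8.07c (chrII:99860-101140), all annotated as transporters. The LTRs lie at chrII:93517-93860, chrII:96276-96619, chrII:99035-99378 and chrII:101794-102137. The edges and junctions below, on the plus strand, show where single-copy sequence ends and the repeat begins, with bases of the repeat that open a unit, or on the right edge close the last one, in capitals.
left edge (chrII:91607-91666, + strand): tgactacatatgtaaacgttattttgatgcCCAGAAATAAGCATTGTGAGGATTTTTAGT
junction of units 1 and 2 (chrII:94366-94425, + strand): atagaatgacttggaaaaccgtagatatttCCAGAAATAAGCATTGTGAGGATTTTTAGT
junction of units 2 and 3 (chrII:97125-97184, + strand): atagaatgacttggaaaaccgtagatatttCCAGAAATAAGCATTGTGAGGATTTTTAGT
junction of units 3 and 4 (chrII:99884-99943, + strand): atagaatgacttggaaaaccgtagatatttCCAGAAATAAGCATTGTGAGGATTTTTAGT
right edge (chrII:102643-102702, + strand): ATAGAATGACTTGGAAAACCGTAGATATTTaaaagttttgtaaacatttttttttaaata
The 3 junctions are the same sequence, and the last 30 bases of the unit, in lower case at the junctions, return in capitals at the right edge.

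The coding sequences have 0 mismatches among them and encode the same protein of 379 residues. The start of SPBPB10D8.05c stands for all of them, with the start codon in capitals.
SPBPB10D8.05c start (chrII:95593-95652, - strand): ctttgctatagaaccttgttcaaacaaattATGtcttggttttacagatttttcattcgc
The nearest other protein of the reference was that of SPCC794.06, annotated as a TDT malic acid transporter, with 21.3% identity over 347 residues. The TDT family of membrane transporters takes in the malate carrier Mae1 of S. pombe and the sulphite pump Ssu1 of Saccharomyces cerevisiae. The unit had 4 full-length matches in the genome, all in this cluster. It also had 173 matches shorter than the unit, counted without regard to position, of which 165 overlapped the LTR. The longest was 417 bp and the identities were 64.8% to 88.3%. The LTR, an element of the class that Sap1 is known to bind, is shown by its ends on its own strand.
LTR, first 60 bases (chrII:93801-93860, - strand): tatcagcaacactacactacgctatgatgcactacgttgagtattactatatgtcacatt
LTR, last 60 bases (chrII:93517-93576, - strand): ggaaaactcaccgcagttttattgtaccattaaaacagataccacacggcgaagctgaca

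Tile names and reference are numbered differently. Sliding GC content along the input signal placed the tiles of this arm 900 bp above the reference, with a correlation of 0.571 against a median of 0.0108 over other offsets, so that genes are placed on tiles to within about 1 tile. Positions of tiles below follow the tile names, for which no source used here names a build, and positions of sequences follow ASM294v3. Of the 34 grid positions of 300 bp in the stretch, 27 carried a tile, and all 27 were repeated sequence in the reference. No spot of the stretch was saturated or not well above background, and its processed Cy3 signals ran from 828 to 4855 in wild-type and from 252 to 2268 in sap1-1. Median Cy3 signals over each array were 1059 and 916.

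The input across the transporter cluster was lower in sap1-1 than in wild-type at every one of the 27 tiles, where 51.9% of all chromosome tiles were lower. All input and Cy5 values that follow are log2 processed signals centred on the median of the array over chromosome tiles. The median input was 1.28 in wild-type (range -0.35 to 2.20, SD 0.68) and 0.29 in sap1-1 (-1.86 to 1.31, SD 0.87). The difference, sap1-1 minus wild-type, had a median of -1.09 (SD 0.30), which is 0.468 times the wild-type signal on a linear scale, and ranged from -1.98 to -0.78. The levels of the arrays overlapped in range, whereas no single tile read higher in sap1-1.

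The flanks behaved otherwise. Over the 65 tiles on either side the input difference had a median of -0.04 (SD 0.20) and ran from -0.59 to 0.31, so that flank and cluster values did not overlap. Because the stretch was picked on its input, this separation only describes it. Flank input itself was -0.55 in wild-type against -0.68 in sap1-1. The cluster less its flanks gave -1.05 in input difference, with the left flank at -0.04 and the right flank at -0.04.

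The difference began and ended within about 1 tile of the edges of the repeats. At the left edge, the tile just outside (92400), of which 49.8% is repeated sequence, read -1.88 in wild-type against -1.75 in sap1-1 (difference 0.13), and the first tile inside read 1.48 against 0.32 (difference -1.16). At the right edge, the last tile inside (102600) read 0.03 against -1.73 (difference -1.76), and the next tile outside (103500), 15.9% repeated, read -1.53 against -1.31 (difference 0.22). The next tiles beyond these, 92100 and 103800, held no repeated sequence and differed by -0.05 and 0.31. Input was thus not lower at the tile just outside either edge, although 92400 straddles the start of the repeats, and no tile was printed between 102600 and 103500.

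**Figure D1:**
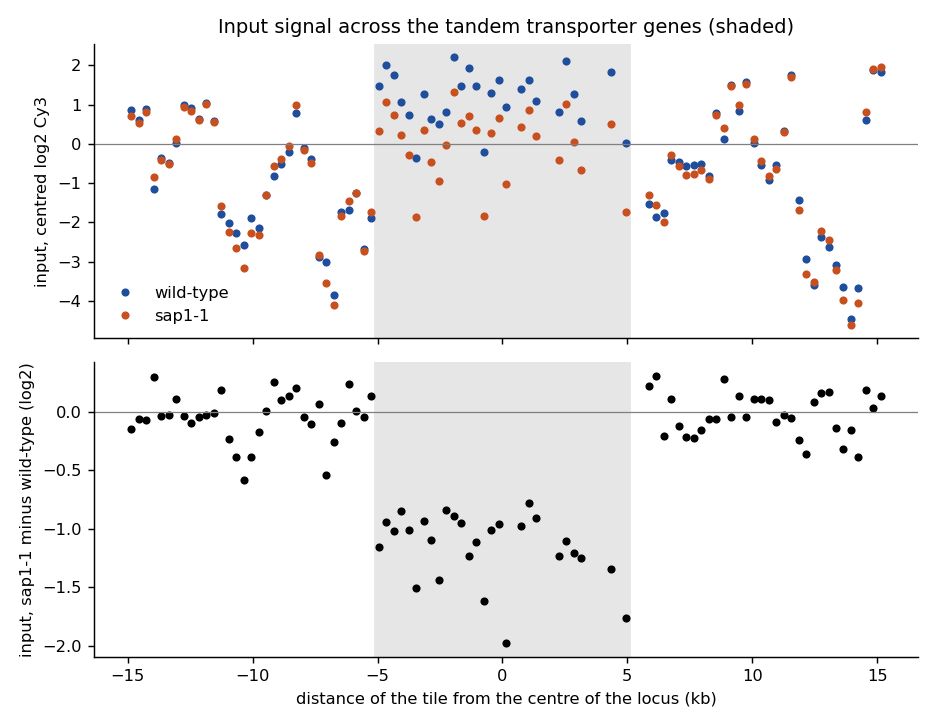
Centred log2 Cy3 input of each tile on the wild-type and sap1-1 arrays (upper panel) and sap1-1 minus wild-type (lower panel) against distance from the centre of the locus in kb, with the transporter tiles shaded. Inside the shading all 27 differences lie between -1.98 and -0.78, and outside it between -0.59 and 0.31.

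Of the 27 tiles, 17 were lower in sap1-1 by at least 1 log2 (2-fold), beside 0.0509% of all chromosome tiles, 21 in number. The remaining 4 of those 21 tiles were single tiles at I 715800 (-1.54), I 1740900 (-1.21), II 156000 (-1.65) and III 562200 (-1.35). At a threshold of 0.5 log2 all 27 tiles of the cluster were lower, beside 0.749% of all tiles. The stretch was picked on these same values, so the counts only describe it.

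Input was lower by similar amounts in the 4 genes. For SPBPB10D8.04c, 4 tiles of the stretch read 1.48, 2.0, 1.75 and 1.07 in wild-type against 0.32, 1.06, 0.73 and 0.22 in sap1-1, with a median difference of -0.98. Another tile of this gene, 92400, straddles the start of the repeats outside the stretch, and with it the median was -0.94. For SPBPB10D8.05c, the 4 tiles read 0.81, 2.20, 1.47 and 1.93 in wild-type against -0.03, 1.31, 0.52 and 0.70 in sap1-1, with a median difference of -0.92. In both genes every tile of the repeat was lower in sap1-1, and the order of the tiles by level was the same on both arrays.

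For SPBPB10D8.06c, the 3 tiles read 1.40, 1.63 and 1.10 in wild-type against 0.42, 0.85 and 0.19 in sap1-1, with a median difference of -0.91. SPBPB10D8.07c had 1 tile, at 0.58 in wild-type against -0.66 in sap1-1 (difference -1.25). Since the genes are identical, their tiles read the same sequence at shifted positions and are not 4 independent measurements. The 4 tiles whose middles lay in an LTR had a median difference of -1.12, and the 11 tiles between genes and LTRs -1.21. Counted by unit, the median was -1.02, -1.01 and -1.04 over the 9, 9 and 6 tiles of units 1 to 3, and -1.35 over the 3 tiles of unit 4.

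The number of copies offers a scale for these levels. Input was adjusted for GC content by a polynomial fit for each array and set against tiles found once in the reference. On this scale the transporter tiles stood at 1.93 (SD 0.77) in wild-type and 0.81 (SD 0.85) in sap1-1, or 3.80-fold and 1.76-fold over single-copy tiles. The flanks stood at -0.06 and -0.08. The wild-type level was thus the higher of the pair in the cluster, while the flanks stood near single-copy tiles on both arrays.

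Repeats elsewhere show how loose the scale is. The 242 other tiles with a median of 2 copies stood at 1.61-fold in wild-type and 1.66-fold in sap1-1, and the 66 with a median of 4 copies at 3.08-fold and 3.53-fold. The classes were not in the order of their copies. In wild-type the class with a median of 3 copies stood at 3.19-fold, above that of 4. The class of 5 stood at 5.89-fold, above those of 6 and 10 at 3.47-fold and 3.78-fold. The tiles with 2 and 4 copies were not lower in sap1-1, with median input differences of 0.05 and 0.17. Single tiles scattered with an SD of 0.94 in wild-type over the single-copy class, so that a copy number of the cluster in either strain is not given by these values.

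**Figure D2:**
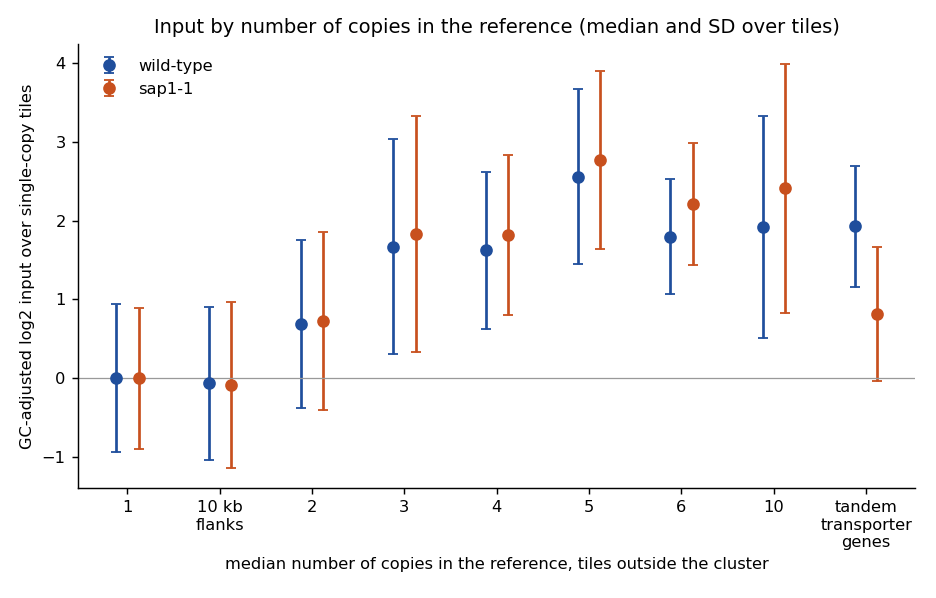
GC-adjusted log2 input over single-copy tiles (vertical axis) in wild-type and sap1-1, with points for medians and bars for the SD over tiles, by median number of copies in the reference (horizontal axis). The tandem transporter tiles stand at 1.93 in wild-type and 0.81 in sap1-1, while the other classes plotted are close to equal or higher in sap1-1.

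Across the genome, input was divided into 1224 consecutive windows of 10200 bp, with the grid aligned to the transporter stretch. The stretch was picked on its input, so its place among windows and runs in input only describes it. The transporter window was the single one with a median input difference at or below -0.5, 0.0817% of windows. The other 1223 windows lay between -0.21 and 0.43 with an SD of 0.06. Runs of tiles whose input difference, as a running median over 5 tiles, reached 0.75 in either direction numbered 5. The transporter cluster was the longest (27 tiles, 10200 bp) and the single one lower in sap1-1. The other 4 were 0.9 to 1.5 kb long, on chromosome III, and higher in sap1-1 by medians of 0.57 to 0.94. By median over tiles they were 88.9% to 100% repeated sequence, and the cluster 100%, so all 5 runs lay in repeats.

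By genes, 1 of 5098 genes with tiles was lower in input by at least 1 log2 (0.0196%), and this was SPBPB10D8.07c, read by 1 tile. As the copies are identical, the call does not set this gene apart from the other members. The other members stayed inside that threshold at -0.94, -0.92 and -0.91, and no gene was higher by as much. The 22 genes elsewhere that share the annotated product "transporter" had input differences from -0.25 to 0.21. SPCC794.06, the nearest relative in sequence, differed by -0.02. Other transporter genes differed by 0.02 (ght3, a gluconate symporter), -0.05 (ght4, a hexose transporter) and 0.03 (mae1, the malate carrier).

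The BrdU immunoprecipitate of the transporter cluster was also lower in sap1-1 at all 27 tiles, beside 56.7% of all chromosome tiles. The centred log2 Cy5 signal had a median of 2.68 in wild-type (range 1.06 to 3.94) and 1.27 in sap1-1 (-1.46 to 2.56). The difference had a median of -1.57 (SD 0.62), or 0.336 times the wild-type signal, and ran from -3.69 to -1.14. All 27 tiles passed 1 log2, beside 16.6% of all chromosome tiles. The transporter window ranked 4 of 1224 by Cy5 difference, where 16.4% of windows were lower by at least 0.5 log2.

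Cy5 was also lower in the flanks, where input was near equal. The flank median went from 1.21 in wild-type to 0.14 in sap1-1, with a median difference of -1.07 and 36 of 65 tiles lower by at least 1 log2. The sides were unlike, at -1.45 on the left and -0.88 on the right, so the cluster less both flanks gave -0.51, less the left flank alone -0.13 and less the right flank alone -0.70. Flank tiles ranged from -2.95 to 0.29, and flank and cluster values overlapped in Cy5.

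BrdU per input, the log2 ratio of Cy5 over Cy3 centred on the array median, showed the least difference of the 3 measures. The ratio had a median of 1.62 in wild-type (range 0.44 to 2.01) and 1.08 in sap1-1 (-0.46 to 1.65). The difference was below 0 at all 27 tiles, beside 55.8% of all chromosome tiles, with a median of -0.44 (SD 0.49) and a range of -1.85 to -0.05. The transporter window ranked 250 of 1224 in ratio difference, where 17% of windows were lower by at least 0.5 log2. Of the 27 tiles, 5 passed 1 log2, beside 17.1% of all tiles.

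Against each array's own input, the ratio differed more in the flanks than in the cluster. The flanks went from 1.97 in wild-type to 0.99 in sap1-1, with a median difference of -1.01 and 34 of 65 tiles lower by at least 1 log2. The cluster less its flanks was 0.56 in ratio difference, 0.81 less the left flank alone and 0.31 less the right flank alone. This ratio divides by an input that itself differed. With the mean input of both arrays as denominator, the input cancels between strains and the Cy5 difference is left, up to centring. The cluster then differed by -1.56 and the flanks by -1.05, the cluster less its flanks being -0.51 as in Cy5. That value is therefore not a separate result on BrdU per input. With each channel centred on its mode the cluster's own difference was -0.98.

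**Figure D3:**
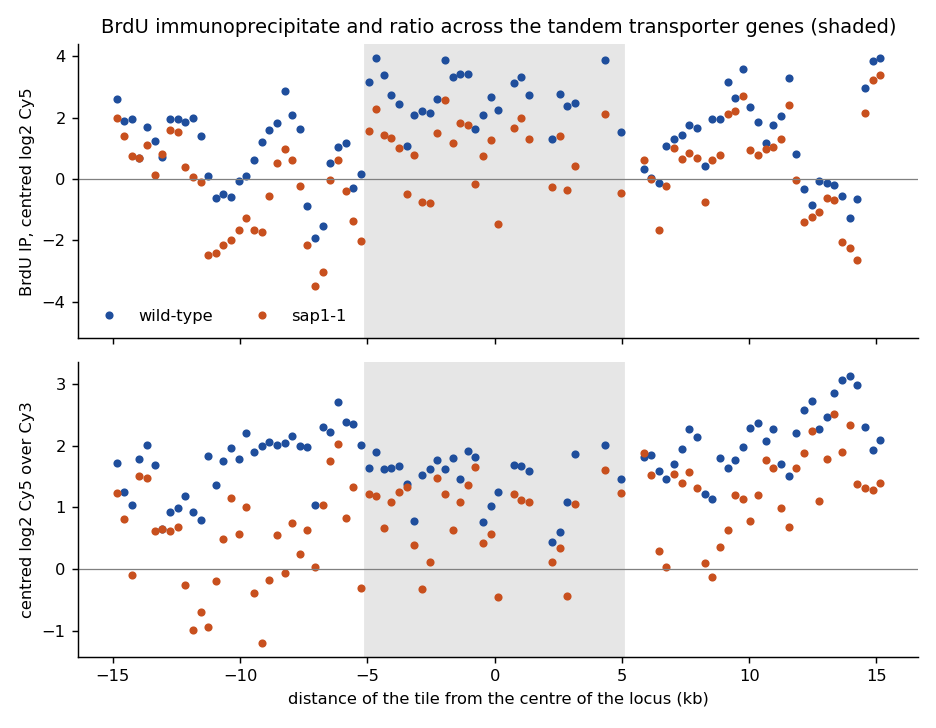
Centred log2 Cy5 of the BrdU immunoprecipitate (upper panel) and centred log2 Cy5 over Cy3 (lower panel) of each tile in wild-type and sap1-1 against distance from the centre of the locus in kb, with the transporter tiles shaded. Cy5 is lower in sap1-1 at all 27 shaded tiles and at 62 of the 65 flank tiles.

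BrdU-enriched regions were defined as runs of at least 3 tiles with a ratio of at least 1, smoothed over 500 bp each side and merged within 1000 bp. They covered most of the cluster in wild-type. Of the 34 grid positions of the stretch 27 carried a tile, and the part of missing tiles in the breaks between regions was not tested. A region from 86100 to 99299 took in the first 3 genes, and one from 100500 to 125099 took in the rest. In sap1-1 the regions were short, at 96300 to 97199, 98400 to 99299 and 102000 to 104099. Over the genome sap1-1 had 681 regions and wild-type 472. A longer sap1-1 region, 107400 to 119399, lay beyond the cluster. No sap1-1 region was called over SPBPB10D8.04c inside the repeats, the nearest one, 91200 to 92099, ending before the first tile of the stretch. The median sap1-1 ratios of SPBPB10D8.04c, SPBPB10D8.05c and SPBPB10D8.06c were 1.13, 1.15 and 1.12, all close to the threshold of 1. As the copies are identical, where a region was called does not tell the genes apart.

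Folding the 4 units over each other showed where within the unit the arrays differed most. The Cy5 difference was largest at the end of the unit, after the LTR and before the next gene. Of the 4 tiles whose middles lay past base 2400 of the unit, 94800 read 2.20 in wild-type and -0.75 in sap1-1, and 95100 read 2.15 and -0.80. Tile 97800 read 2.23 and -1.46, and tile 100500 read 2.39 and -0.35. The wild-type values lay close together, all 4 sap1-1 values were below the median of their array, and the differences ran from -3.69 to -2.75.

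The other 23 tiles had Cy5 differences of -2.13 to -1.14, against -3.69 to -2.75 in these 4. The boundary at base 2400 was set after these values were seen, so the separation only describes them. Large differences were not confined to the cluster. In Cy5, 6 of the 65 flank tiles were lower by at least 2 log2, beside 6 of the 27 cluster tiles and 3.23% of all chromosome tiles. Ratio differences in the flanks reached -3.20. In ratio, the 4 tiles had a median difference of -1.62 (-1.85 to -1.51), against a median difference of -0.41 in the other 23. They came from units 1, 2 and 3, and unit 4 had no tile there. The 2 tiles between the LTR and base 2400, at middles of 2295 and 2354, had ratio differences of -0.26 and -0.44, unlike the tiles beyond. The 300 bases below, from base 2413 to base 2712 of unit 1, run between the middles of the first and last of these tiles.
end of unit 1 (chrII:94049-94348, + strand): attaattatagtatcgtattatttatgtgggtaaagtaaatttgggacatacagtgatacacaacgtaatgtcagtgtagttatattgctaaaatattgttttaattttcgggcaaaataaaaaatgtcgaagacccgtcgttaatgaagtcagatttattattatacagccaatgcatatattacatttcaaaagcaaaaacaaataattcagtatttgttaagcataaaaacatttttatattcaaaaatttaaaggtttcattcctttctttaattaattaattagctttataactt
GC content moved with this difference. The 4 tiles held 23.7% to 28.0% GC and the other 23 held 27.0% to 36.3%, and its part in the result was not tested.

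Other positions of the unit differed less. Tiles in the coding sequence had mean ratio differences of -0.56, -0.50, -0.89 and -0.48 in consecutive position bins, and the bin at the LTR -0.32. The smallest difference, -0.11, was at the 2 tiles just before the LTR (94200 and 96900), where wild-type input was also lowest at -0.35 and -0.21 and the input differences were -1.51 and -1.62. Of the LTR tiles, 3 had wild-type ratios of 0.44 to 0.78, below the 1.47 to 1.90 of the coding tiles in units 1 to 3. The other one, 102600, which has its middle near the edge of the LTR, read 1.46. The 2 tiles between the LTR and base 2400 of the unit read 0.60 and 1.02 in wild-type, so low wild-type ratios were not confined to LTR tiles.

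Tiles in the same position bin of the unit resembled each other more in some measures than in others. Such tiles lay at similar, not identical, positions, and bin 2, with middles from 313 to 613, held more than 1 tile of unit 1. The sap1-1 ratio had a pooled SD of 0.31 among tiles within a bin and an SD of 0.60 among the means of the 9 position bins. For the input difference both were 0.24. Across the 27 tiles, which share 2 arrays and 1 sequence, GC content correlated with the input difference at r = 0.52 and with the Cy5 difference at r = 0.62, as a description. After adjustment for GC content the medians were -1.09 in input, -1.61 in Cy5 and -0.51 in ratio.

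**Figure D4:**
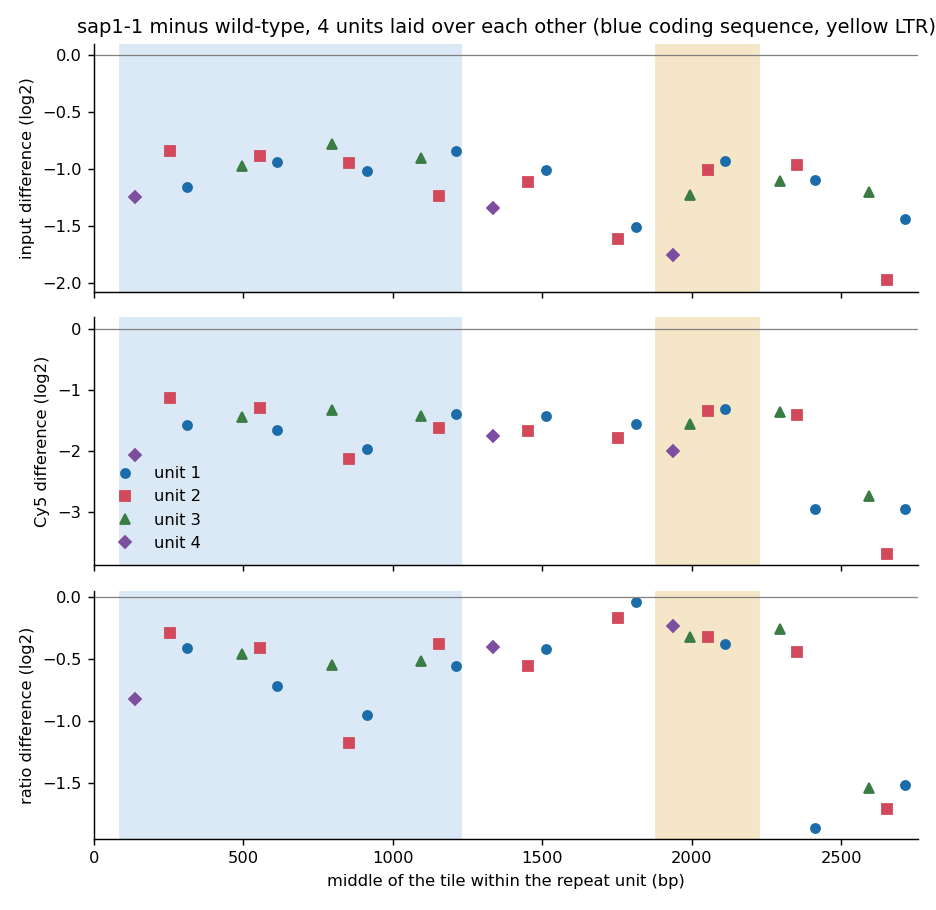
Differences, sap1-1 minus wild-type, in input, Cy5 and ratio (log2, vertical axes) against the middle of each tile within the 2759-bp repeat unit in bp, with a symbol for each unit, the coding sequence in blue and the LTR in yellow. The 4 tiles past base 2400 have Cy5 differences of -3.69 to -2.75, below the -2.13 to -1.14 of the other 23.

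Genes around the cluster had near-equal input on both arrays. To the left, SPBPB10D8.01, annotated as a cysteine transporter, differed by -0.05 in input and -0.56 in ratio, and SPBPB10D8.02c, an arylsulfatase gene, by -0.03 and -0.80. To the right, SPBC359.01, an amino-acid permease gene, differed by -0.04 and -1.06, alr2 (alanine racemase) by -0.07 and -0.66, and aat1 (an amino acid permease) by 0.08 and -0.81. The transporter pseudogene SPBPB10D8.03, named after its values were seen, differed by 0.14 in input and -2.10 in ratio. The neighbours thus had lower BrdU ratios in sap1-1 with input near equal.

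The genes nearest in pattern outside the cluster differed from it mainly in input, the value by which the stretch was picked, so this only describes it. Of 3473 genes with at least 5 tiles, the 5 nearest by Euclidean distance over the median input and Cy5 differences were hob1 (-0.23 in input and -1.33 in Cy5), ppr7 (-0.18 and -1.69), deg1 (-0.16 and -1.58), str3 (-0.27 and -1.14) and iph1 (-0.16 and -1.64). Their distances were 0.90 to 0.94 log2. The plot of genome windows shows the same separation in input, which likewise follows from how the stretch was picked. Of the 27 tiles, 22 lie in the outer 100 kb of the left end of chromosome II, where 275 tiles had a median ratio difference of -1.08, and -1.11 without those 22.

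**Figure D5:**
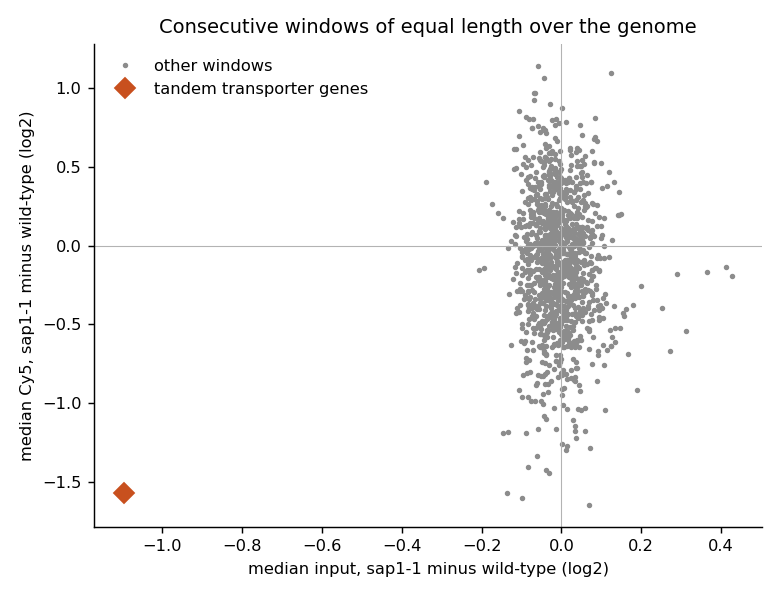
Median Cy5 difference against median input difference (sap1-1 minus wild-type, log2) in 1224 windows of 10200 bp, with the window of the tandem transporter genes as a diamond at -1.09 in input and -1.57 in Cy5. The other windows lie between -0.21 and 0.43 in input and between -1.65 and 1.14 in Cy5.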

How the data were processed

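The deposited processed signals are linear intensity values that, per the file headers, came from Agilent Feature Extraction 10.7.3.1 with background subtracted and each dye scaled by a factor per array. The deposited log10 ratio sets Cy5 over Cy3 processed intensity. The deposited median spot and background intensity values, per the file headers uncorrected, served alternatives only. Of 42968 spots, 41551 were not controls and 41251 were chromosome tiles, of which 11 flagged as outliers on either array were left out. Deposited processed signals were taken to log2, less the array median of 41240 tiles, with no loess or quantile step. Medians over tiles are given, with no test, since each strain has 1 array. Arm offsets were found over 6000 bp either way in steps of 60 bp. Tiles counted as repeated if 10% or more of their words of 30 bases recur in the reference. The GC adjustment was a polynomial of degree 3. Window, run and offset searches were tested on simulated data. Repeats were searched with BLAST+ 2.17.0. Further tools were Python 3.11.15, numpy 2.4.6, pandas 2.3.3, R 4.3.3 and limma 3.58.1 (normexp, offset 50). Named genes were the 4 members, protein-coding neighbours within 10 kb, genes of the same product, the 5 genes nearest in input and Cy5, genes at other input runs, and ght3, ght4, mae1, ura4 and hus5. The members and lists were chosen with earlier results of these data known. Alternatives covered centring, signal, scaling, GC content, edges, flanks, threshold and gene placement.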

Additional observations from a re-analysis of the deposited data

How the results depend on the processing

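The input difference of the cluster lay between -1.22 (normexp background correction) and -1.02 (1 tile trimmed or added at each edge) over 9 alternatives, and less its flanks between -1.22 and -0.98 over 12. The Cy5 difference lay between -1.92 (mode centring) and -1.46. The ratio difference of -0.44 moved beyond the tile SD to -0.98 with mode centring and to -1.56 with the mean input of both arrays as denominator. The count of 17 tiles lower in input lay between 14 and 22, and was 27 at 0.5 log2. Comparing with 1 flank at a time, and using the mean input for the ratio of cluster less flanks, were added after seeing the data. The Cy5 difference of the cluster less the left flank was -0.13. With the mean input, the ratio difference of the cluster less its flanks went from 0.56 to -0.51. The input then cancels, so this value is the Cy5 difference again. No other alternative reversed a sign. Moving genes by 1 tile changed all 24 gene values by less than the SD over the 27 tiles of the cluster. SPBPB10D8.07c, with 1 tile, has no tile SD of its own, and its ratio difference went from -0.82 to -1.18 and -0.40. Leaving out repeated tiles gave no value, since all 27 tiles are repeated. No paired analysis was possible because each strain has 1 array. Precision is limited by that number, and no replicate spread is known.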

Other observations

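Input differed by -0.04 at ura4 (4 tiles) and by 0.03 at hus5 (4 tiles). All 27 tile names of the transporter cluster carry an additional letter f or m, as do 3.66% of all chromosome tiles and 5 of the 65 flank tiles, and no source used here gives its meaning.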
